A study of Homo sapiens with 4 samples.

Results

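The loci of 5 transcription factor genes that drive the epithelial-to-mesenchymal transition (EMT), ZEB1, ZEB2, SNAI1, SNAI2 and TWIST1, were examined for Fra-1 and DDX5 binding in BT549 cells. Members are the peaks that overlap 1 of 5 windows of hg19 set around these genes. The windows are chromosome 10, 31580000 to 31830000 (ZEB1), chromosome 2, 145130000 to 145300000 (ZEB2), chromosome 20, 48570000 to 48635000 (SNAI1), chromosome 8, 49450000 to 49860000 (SNAI2 and a region beside it), and chromosome 7, 19120000 to 19190000 (TWIST1). On which side of SNAI2 the peaks of its window lie, upstream or downstream, was not determined. They hold 34 of the 57601 peaks in the 4 deposited lists, and these fall on 20 distinct sites. Of the 34, 19 are among the 30571 Fra-1 peaks called over input, 8 among the 16133 Fra-1 peaks called over IgG, and 7 among the 10836 DDX5 peaks called over input. None is among the 61 DDX5 peaks called over IgG.

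The data come from chromatin immunoprecipitation followed by sequencing (ChIP-seq) in BT549, an established human breast cancer cell line without oestrogen receptor alpha. The groups are a Fra-1 ChIP (antibody R-20), a DDX5 ChIP (antibody ab21696), a ChIP with normal rabbit IgG, and input DNA, the sonicated chromatin before precipitation. All 4 come from cells grown without treatment, and each is 1 library, so no difference could be tested against replicate spread and no p-value is given. Peak lists carry no expression, so the identity of the line could not be checked against markers.

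EMT is the change by which epithelial cells lose cell-cell contacts and gain motility. ZEB1 and ZEB2 are zinc-finger proteins, SNAI1 (Snail) and SNAI2 (Slug) are zinc-finger repressors of one family, and TWIST1 is a basic helix-loop-helix factor. These proteins bind E-box sequences, and a well-known target of their repression is the E-cadherin gene CDH1. Fra-1, a member of the Fos family, binds the sequence TGANTCA within the AP-1 dimer. DDX5 unwinds RNA and serves as a coactivator of several transcription factors. The series asked where Fra-1 and DDX5 bind alone and where they bind together.

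Start-site sequences were at hand for 2 of the 5 genes. The RefSeq promoter table (GRCh38.p14, 300 bases per start site) holds 7 entries for ZEB1 and 1 for ZEB2, and all 8 were searched for AP-1 and E-box motifs. None of the 8 contained TGANTCA, which reads the same on both strands, and 7.71% of all 35116 promoters in the table did. The E-box CACCTG, or CAGGTG on the other strand, was in 2 of the 8, both at ZEB1, and in 20.6% of all promoters. That motif was chosen after the sequences were seen. The ZEB1 entry with 3 E-box matches and the ZEB2 entry, with 0, are shown because the products of both genes bind this motif. The ZEB1 entry was picked for having the most matches, and 5 of the 7 ZEB1 entries had 0. Capitals mark the E-box matches. Their coordinates are not those of hg19, so no peak is placed on them, and a missing match says only that these letters are not in this window.
ZEB1, GRCh38.p14 chr10:31318966-31319265, plus strand: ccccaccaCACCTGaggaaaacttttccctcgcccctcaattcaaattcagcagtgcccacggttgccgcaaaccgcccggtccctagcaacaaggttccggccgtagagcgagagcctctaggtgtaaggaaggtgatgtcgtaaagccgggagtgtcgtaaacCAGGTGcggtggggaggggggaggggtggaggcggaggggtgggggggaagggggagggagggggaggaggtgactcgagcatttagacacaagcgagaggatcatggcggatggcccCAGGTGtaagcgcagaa
ZEB2, GRCh38.p14 chr2:144520070-144520369, minus strand: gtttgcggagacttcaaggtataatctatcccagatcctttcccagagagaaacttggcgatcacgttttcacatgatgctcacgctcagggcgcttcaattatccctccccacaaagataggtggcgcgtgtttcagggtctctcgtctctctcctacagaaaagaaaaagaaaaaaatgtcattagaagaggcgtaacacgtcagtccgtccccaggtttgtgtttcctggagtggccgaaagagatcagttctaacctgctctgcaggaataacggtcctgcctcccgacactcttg

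Fra-1 peaks were listed at all 5 loci, but strong ones, of at least 8-fold over input, at 2. Each peak has a pileup, the number of Fra-1 fragments over its summit, and a fold over the local control, with 1 added to both counts. Both are the authors' values. Of the 19 Fra-1 peaks over input, 8 lay at SNAI2, 4 at TWIST1, 3 at ZEB1, 2 at ZEB2 and 2 at SNAI1. Their median fold was 4.38 (range 2.96 to 38.8), against 5.37 in the whole list, and the 95% interval of the members' median, 3.53 to 8.39, contains that of the list. Over IgG the order of the medians was the other way, with 7.19 for the 8 members called there and 6.82 for that whole list. Peaks of at least 8-fold numbered 5 of 19 (26.3%, exact binomial 95% interval 9.15% to 51.2%), against 29.5% of the whole list. These 5 were 4 at SNAI2 and 1 at ZEB2. The remaining 14 ranged from 2.96-fold to 7.29-fold. As a group the members thus had folds near those of any Fra-1 peaks. The windows held 19.7 Fra-1 peaks per Mb, against 10.0 per Mb over chromosomes 1 to 22 and X, and the density ran from 11.8 per Mb at ZEB2 and 12.0 at ZEB1 through 19.5 at SNAI2 and 30.8 at SNAI1 to 57.1 at TWIST1. Windows of 65 to 410 kb placed around genes hold few peaks each, so these densities move with where the edges lie.

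**Figure D1:**
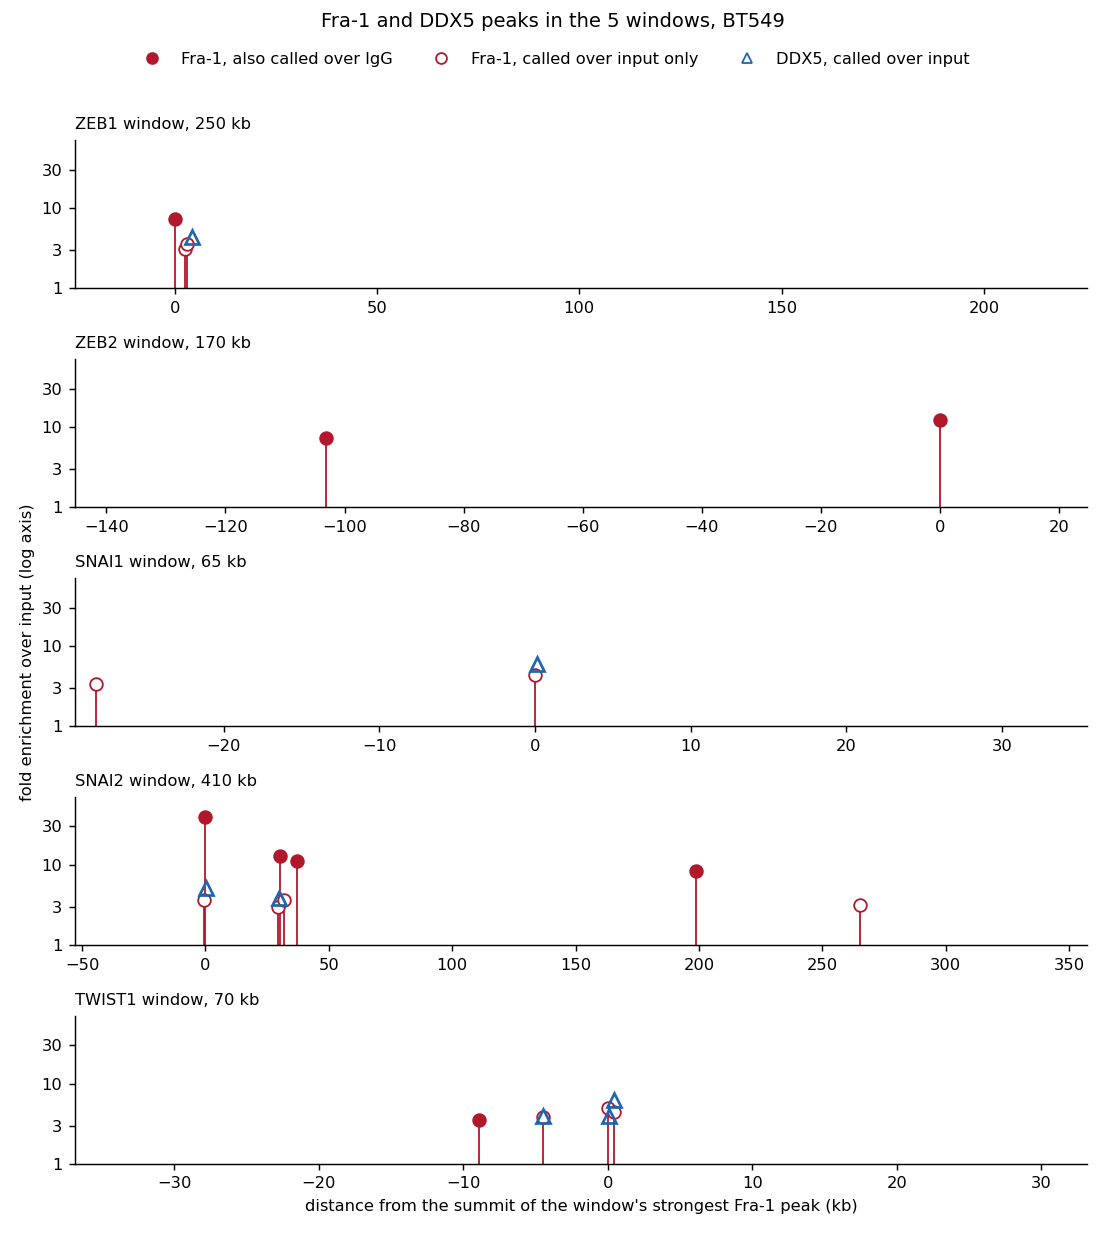
Peaks in each window by distance from the summit of that window's strongest Fra-1 peak (kb) and by fold over input (log axis). Filled circles are Fra-1 peaks also called over IgG, open circles Fra-1 peaks called over input only, and triangles DDX5 peaks. The 4 filled circles at SNAI2 reach 8.39-fold to 38.8-fold, and the triangles sit at 4 of the 5 loci, with none at ZEB2.

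SNAI2, which encodes Slug, had the Fra-1 peak with the highest fold over input of the 5 loci and the most peaks. Its window, of 410 kb, is also the largest. Its density of 19.5 Fra-1 peaks per Mb was near the 19.7 of all 5 windows and below those of SNAI1 and TWIST1. In order of position, the 8 peaks had Fra-1 pileups of 31, 278, 18, 106, 26, 97, 61 and 18, against input levels of 7.74, 6.20, 5.42, 7.36, 6.39, 7.74, 6.39 and 5.03. Peaks 2, 4, 6 and 7 stood high, and the other 4 had pileups of at most 31. Peak 2, at 49502540 to 49503270, was 731 bp wide and had a fold of 38.8. Its pileup of 278 has a Poisson 95% interval of 246 to 313, which covers counting error only, and a summit is by choice a local maximum. It took place 3 of 30571 when the list was ordered by −log10 q. Peak 4, at 49532441 to 49533086, reached 12.8-fold, peak 6, at 49539606 to 49540127, 11.2-fold, and peak 7, at 49701309 to 49701629, 8.39-fold. These 3 exceeded 72.2% to 85.6% of the list in fold.

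The SNAI2 peaks were gathered. The first 6, from 49502000 to 49540127, lay within 38.1 kb of a window of 410 kb. An empty stretch of 161.2 kb followed, then peak 7, a gap of 66.4 kb, and peak 8 at 49768049 to 49768268 (3.15-fold). Some weak peaks adjoined strong ones: peak 1 (3.66-fold) ended 0.295 kb before peak 2, and peak 3 (2.96-fold) 0.163 kb before peak 4. Peak 5, at 49534418 to 49534744, was 3.65-fold. The nearest coding genes on either side of SNAI2 in the RefSeq order of GRCh38 are CLXN and PPDPFL. Without an hg19 annotation, it was not determined whether either lies inside the window or between SNAI2 and these peaks. The name SNAI2 is thus that of the window, and which gene a peak acts on cannot be read from its position. Input was also high here. The median input level at the 8 peaks was 6.39, against 4.45 over all Fra-1 peaks over input, and even the lowest, 5.03, lay above that median. So did every input level at ZEB1 (4.86 to 6.78) and SNAI1 (4.70 to 5.21), and the median over all 19 members was 5.21. Input follows copy number and how well a region is recovered. Its part in the number of peaks called here was not tested. The fold already divides by it.

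At ZEB1 the Fra-1 and DDX5 peaks sat together at one end of the window. Its 3 Fra-1 peaks over input had pileups of 43, 23 and 20, against input levels of 5.03, 6.78 and 4.86. Peak 1, at 31604451 to 31604708, was the highest, at 7.29-fold. The Poisson interval of its pileup, 31.1 to 57.9, overlaps that of peak 2, 14.6 to 34.5, at its lower end. Such an overlap does not by itself show that the counts are alike. Peaks 2 and 3, at 31607160 to 31607525 and 31607667 to 31607931, were 3.09-fold and 3.58-fold and exceeded 6.13% and 15.0% of the list. All 3 lay within 3.48 kb, and no Fra-1 peak was listed in the remaining 222.1 kb up to the window's end.

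ZEB2 had 2 Fra-1 peaks over input and no DDX5 peak. Peak 1, at 145172045 to 145172401, had a pileup of 28 against an input level of 3.02, and peak 2, at 145275090 to 145275456, a pileup of 71 against 4.84. The folds were 7.21 and 12.3. The input level of 3.02 is the lowest in the list and is shared, to within 0.01, by 4681 of its peaks (15.3%). It is taken as a floor, so the local input may be lower and the fold of 7.21 higher than listed. The peaks were 102.7 kb apart, and peak 2 exceeded 84.5% of the list in fold. A Fra-1 peak of higher fold lay 6.67 kb below the window, at 145122376 to 145123330. It had 14.9-fold over input and 10.8-fold over IgG.

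SNAI1, which encodes Snail, had no strong peak inside its window. Its peaks, at 48571215 to 48571485 and 48599517 to 48599724, had pileups of 20 and 24 against input levels of 5.21 and 4.70, which gave 3.38-fold and 4.38-fold. As at ZEB2, the window's edges matter here. Peak 1 lay 1.22 kb inside the lower edge, and Fra-1 peaks of 9.32-fold and 9.81-fold lay 4.28 kb below the window and 1.37 kb above it. In the RefSeq order of GRCh38 the nearest coding genes are RNF114 and PEDS1-UBE2V1.

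TWIST1 had 4 Fra-1 peaks within 9.60 kb, all weak. Their pileups were 23, 16, 22 and 19, against input levels of 5.81, 3.45, 3.68 and 3.52. The folds were 3.53, 3.82, 4.92 and 4.42, at 19147791 to 19148241, 19151950 to 19152534, 19156702 to 19157020 and 19157173 to 19157392. The Poisson interval of each of the 4 pileups contains the others, so they were not ordered. All 4 folds lay below the list's median of 5.37.

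**Figure D2:**
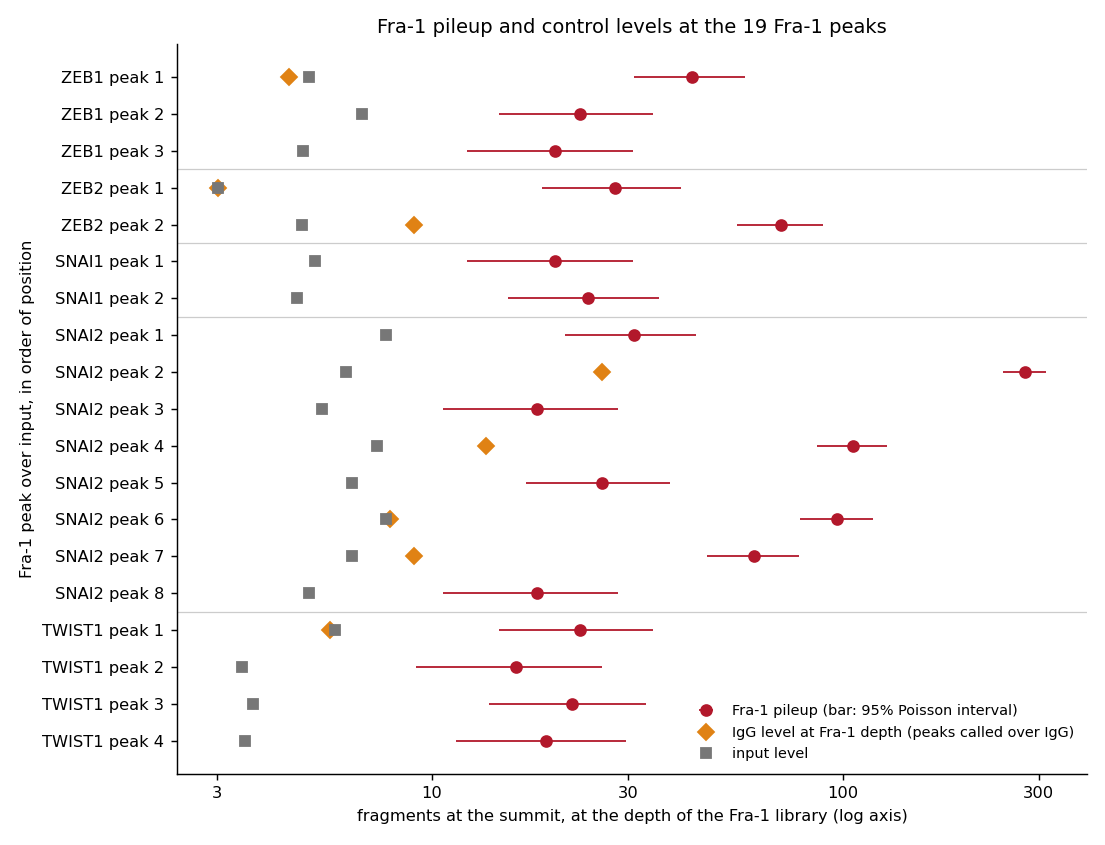
Fra-1 pileup (circles, with Poisson 95% intervals), IgG level (diamonds, where the peak was called over IgG) and input level (squares) at the 19 Fra-1 peaks, in fragments at the depth of the Fra-1 library, to which input is assumed to be scaled (log axis). SNAI2 peak 2 stands apart with a pileup of 278, and the IgG level there, 26.0, is well above the input level of 6.20.

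The IgG control kept 8 of the 19 Fra-1 peaks. This share, 42.1% (20.3% to 66.5%), is near the 50.5% of the whole list. The kept peaks were 4 of 8 at SNAI2, 2 of 2 at ZEB2, 1 of 3 at ZEB1, 1 of 4 at TWIST1 and 0 of 2 at SNAI1. All 5 peaks of at least 8-fold were kept, as were 97.6% of such peaks in the whole list, and 3 of the 14 weaker ones (21.4%, 4.66% to 50.8%), against 30.8% of the weaker peaks in the whole list. Over IgG, SNAI2 peak 2 had 10.3-fold, peak 4 had 7.29-fold, peak 6 had 10.8-fold and peak 7 had 6.10-fold. The ZEB2 peaks had 7.01-fold and 7.09-fold, ZEB1 peak 1 had 7.84-fold and TWIST1 peak 1 had 3.56-fold. The summits in both lists were 0 to 3 bp apart. The order of the folds thus changed with the control: SNAI2 peak 2 led by 38.8 to 12.8 over input, and over IgG it lay just under SNAI2 peak 6. Only these 2 SNAI2 peaks reached 8-fold over IgG, and ZEB1 peak 1 stood above both ZEB2 peaks there.

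Among the 8 Fra-1 peaks called over IgG, the 2 controls differed most at the strongest. For the other 11 the lists give no IgG level. The IgG library had 0.884 times the depth of the Fra-1 library, and IgG levels were divided by that factor to set them beside input. The input level is assumed to be at the depth of the Fra-1 library, because pileups over input are whole numbers, and each ratio of IgG to input rests on that assumption. At SNAI2 peak 2 the IgG level was 26.0 and the input level 6.20, a ratio of 4.20. Of the 15443 Fra-1 peaks called with both controls, 110 (0.712%) had a ratio at least as high, and the median ratio was 1.28 (interquartile range 0.971 to 1.84). The ratio was 1.87 at ZEB2 peak 2, 1.84 at SNAI2 peak 4 and 1.42 at SNAI2 peak 7. It was 1.02 at SNAI2 peak 6, 0.974 at TWIST1 peak 1 and 0.894 at ZEB1 peak 1. At ZEB2 peak 1 both controls stood at the lowest level of their list and the ratio of 1.0 carries no information. Over IgG, SNAI2 peak 2 took place 129 of 16133 by −log10 q. By fold it exceeded 77.1% of the list over IgG, against 99.8% of the list over input.

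**Figure D3:**
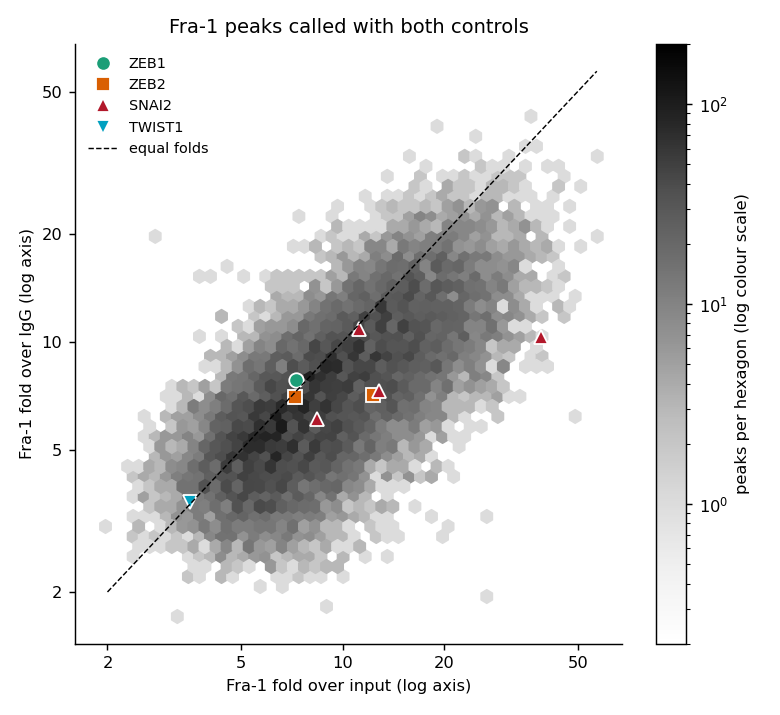
Fold over input and fold over IgG (both log axes) of the 15443 Fra-1 peaks called with both controls, as hexagons shaded by number of peaks, with the 8 peaks at the ZEB1, ZEB2, SNAI2 and TWIST1 loci drawn as symbols. SNAI2 peak 2, at 38.8 over input and 10.3 over IgG, lies far below the dashed line of equal folds.

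DDX5 peaks over input were listed at 4 loci: 3 at TWIST1, 2 at SNAI2, 1 at SNAI1 and 1 at ZEB1. Their median fold was 4.39 (range 3.85 to 6.31), against 4.16 in the whole DDX5 list. None of the 7 reached 8-fold, against 2.28% of the list. None was called again over IgG, a share of 0% (0% to 41.0%), and 0.508% of the list was. A share that low is not detectable with 7 peaks. The DDX5 peaks therefore rest on the input control alone.

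Most DDX5 peaks at these loci overlapped a Fra-1 peak. Of the 7, 6 did (85.7%, 42.1% to 99.6%), against 61.8% of the DDX5 list, and that background lies within the interval. From the Fra-1 side, 6 of 19 peaks over input overlapped a DDX5 peak (31.6%, 12.6% to 56.6%), against 21.8% of the Fra-1 list. They lay at TWIST1 (3 of 4), SNAI2 (2 of 8) and SNAI1 (1 of 2), with 0 of 3 at ZEB1 and 0 of 2 at ZEB2. Paired summits were 14 to 202 bp apart, with a median of 63 bp, against 72 bp over all 6650 such pairs. The pairs were taken because they overlap, so their closeness is a description.

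The shared sites were of different kinds. At SNAI2 peak 2 the Fra-1 pileup was 278 (38.8-fold) and the DDX5 pileup 32 (5.08-fold, interval of the pileup 21.9 to 45.2), with summits 34 bp apart. At SNAI2 peak 4 the pileups were 106 and 26, the folds 12.8 and 3.85, and the summits 202 bp apart. The DDX5 library had 0.886 times the depth of the Fra-1 library, and the antibodies may differ in efficiency, so pileups of the 2 proteins do not measure their relative amounts. Both SNAI2 sites were also called for Fra-1 over IgG, and neither was called for DDX5 over IgG. At these 2 Fra-1 summits the IgG level was 23.0 and 12.0, beside the DDX5 pileups of 32 and 26. Those IgG levels are at the depth of the IgG library, 0.998 times that of the DDX5 library.

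At SNAI1 and TWIST1 the shared sites were weak for Fra-1 and were not called for Fra-1 over IgG. SNAI1 peak 2 had a Fra-1 pileup of 24 (4.38-fold) and a DDX5 pileup of 30 (5.86-fold). In fold it exceeded 32.7% of the Fra-1 list, and its DDX5 partner, at 48599520 to 48599758, exceeded 89.5% of the DDX5 list. TWIST1 peak 4 had a Fra-1 pileup of 19 (4.42-fold) and a DDX5 pileup of 25 (6.31-fold), and its DDX5 partner, at 19157122 to 19157384, had the highest DDX5 fold of the 5 loci and exceeded 92.9% of that list. TWIST1 peak 3 had pileups of 22 and 20 (4.92-fold and 3.97-fold) and TWIST1 peak 2 had 16 and 15 (3.82-fold and 3.93-fold), for Fra-1 and DDX5. Peak 1, the only Fra-1 site at TWIST1 that was called over IgG, had no DDX5 partner. Among Fra-1 peaks not called over IgG, 4 of 11 overlapped DDX5 (36.4%, 10.9% to 69.2%), against 34.4% of all such peaks, and among those called over IgG 2 of 8 did (25%, 3.19% to 65.1%), against 9.38%.

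The DDX5 peak at ZEB1, at 31608716 to 31608968, was the only one of the 7 without a Fra-1 partner. It had a pileup of 26 against an input level of 5.15 (4.39-fold). Its summit lay 1124 bp from that of ZEB1 peak 3, with 784 bp between the peaks, so all 4 sites at ZEB1 lay within 4.52 kb. At ZEB2 the nearest DDX5 peak over input was 40.2 kb below the window.

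**Figure D4:**
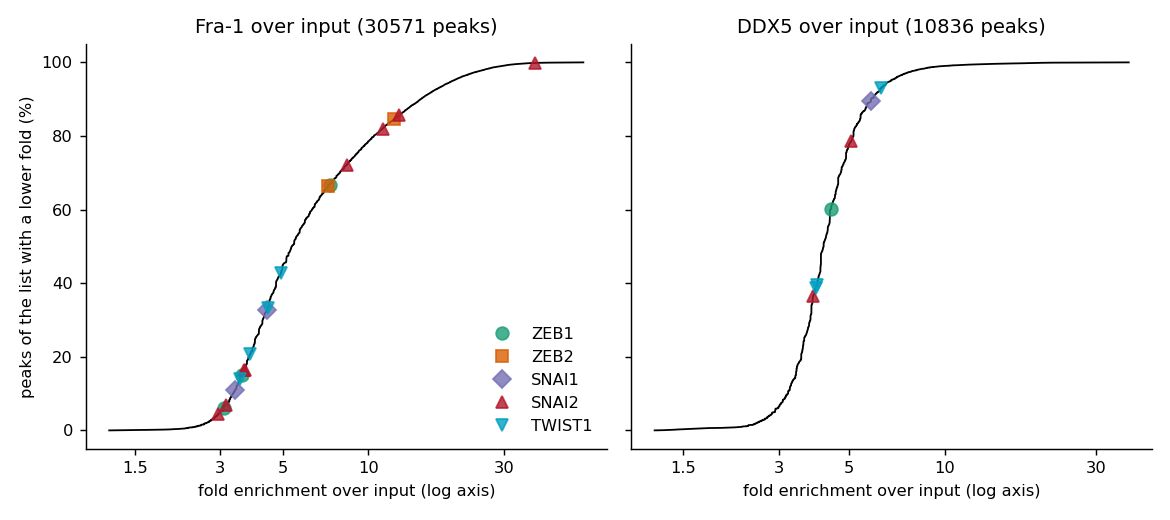
Fold over input (log axis) against the percent of the list with a lower fold, for all 30571 Fra-1 and all 10836 DDX5 peaks over input (lines) and for the members (symbols by locus). SNAI2 members span the Fra-1 list from 2.96-fold to 38.8-fold, TWIST1 members stay below 5-fold in the Fra-1 list, and a TWIST1 and a SNAI1 member have the highest DDX5 folds among the members.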

How the data were processed

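Per the labels, 1 library was sequenced for each of the Fra-1, DDX5 and IgG ChIPs and for input DNA. CASAVA 1.8, Bowtie 0.12.9, HOMER and the build hg19 are named, without roles, in the submitters' processing notes. The peak caller is not given in the sources used here. Per the file headers, the deposited signal is a pileup at the summit and the deposited fold enrichment is a ratio of ChIP to control. The authors' −log10 values stand in 2 columns with damaged headers, and the one with the lower values was taken as −log10 q. Pileups over input are whole numbers. Those over IgG were scaled by the authors to the IgG library (0.884 for Fra-1, 0.998 for DDX5). Absolute depths are not given.

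Control levels were computed as (pileup + 1) / fold − 1. Peaks were paired by an overlap of at least 1 bp, the nearest summit first. Shares have exact binomial (Clopper-Pearson) 95% intervals, pileups exact Poisson intervals and medians order-statistic intervals, all for counting error only. Nothing was tested. The overlap code, run on 5000 simulated peaks, recovered 1500 of 1500 planted overlaps. The members, windows and lists were chosen with earlier results of these data known. Every DDX5 peak and every peak over IgG was named, and of the Fra-1 peaks over input the 3 with the highest fold per locus and those that overlap DDX5. The remaining Fra-1 peaks, SNAI2 peaks 1, 3, 5 and 8, were named after their values were seen. Alternatives were wider windows, peak centres, stricter thresholds, other overlap rules, the other control and leaving out each locus. The code used scipy 1.17.1, pandas 2.3.3, numpy 2.4.6 and, for plots, matplotlib 3.10.9 under Python 3.11.15. Peak sequences, distances to start sites and other EMT genes need an hg19 reference and were not analysed here.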

Additional observations from a re-analysis of the deposited data

How the results depend on the processing

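No paired analysis was possible because each group is 1 library. Of the 49 alternatives, 36 left the value inside its own interval or, where it is a count, changed it by no more than 1.5 times. The count of 19 Fra-1 peaks over input became 36 with windows wider by 50 kb on each side, 5 at 8-fold or more, 7 at or above the list's median −log10 q, 8 over IgG and 11 without the SNAI2 locus. The count of 7 DDX5 peaks became 0 at 8-fold, 0 over IgG and 4 without the TWIST1 locus. Of the Fra-1 peaks, 42.1% were called again over IgG, and this became 100% of 5 peaks at 8-fold and 100% of 7 peaks above the median −log10 q. The share with a DDX5 peak, 31.6%, became 0% with both antibodies at 8-fold and 0% of 8 peaks with both called over IgG. The median Fra-1 fold, 4.38, became 11.2 above the median −log10 q. Thresholds and smaller regions lower counts, and thresholds raise medians of fold, by construction, and no DDX5 peak was left to overlap at 8-fold or over IgG. For the higher shares called again over IgG the cause was not tested. Over IgG the median Fra-1 fold was 7.19. Leaving out each locus in turn gave shares called again over IgG of 35.3% to 47.1%, shares with DDX5 of 20% to 37.5%, the lowest without TWIST1, and median folds of 3.82 to 4.42. The other overlap rules, centres within 100 bp and at least 50% of either peak, left both shares at 42.1% and 31.6%. Shares over 19, 8 or 7 peaks have wide intervals, and depth limits pileups of 15 to 31, where most weak peaks lie.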

Other observations

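At 4 of the 5 loci a Fra-1 peak within 200 kb of the window had a higher fold over input than any inside it. At these 4 the flanks, 200 kb on each side, are larger than the windows of 65 to 250 kb. The maxima inside and outside are thus not taken over like areas. Within 200 kb on either side, the highest Fra-1 fold over input was 46.0 at ZEB2 (chromosome 2, 145417211 to 145417730, 117.2 kb above the window), 30.3 at SNAI1 (chromosome 20, 48782099 to 48783048, 147.1 kb above), 21.4 at TWIST1 (chromosome 7, 19014432 to 19014806, 105.2 kb below) and 8.18 at ZEB1 (chromosome 10, 31958226 to 31958675, 128.2 kb above). All were called over IgG, at 23.4-fold, 11.5-fold, 15.8-fold and 4.77-fold. At ZEB1 the order turned with the control and the measure: the strongest peak inside the window had 7.84-fold over IgG and a pileup of 43, against 4.77-fold and 42 outside. At SNAI2 the highest fold was 38.8 inside the window and 12.2 outside it. The flanks held 30 Fra-1 peaks at SNAI1, 10 at ZEB2, 7 at ZEB1, 6 at SNAI2 and 5 at TWIST1. In the same order the windows held 2, 2, 3, 8 and 4. Whether any of these sites belongs to the EMT factor genes or to their neighbours was not tested.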
